A study of Drosophila melanogaster with 12 samples.

Results

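The genes described here are the cytochrome P450 genes of Drosophila melanogaster and were taken from the deposited count tables by their symbols. Every symbol that began with Cyp and a digit was included, which gave 81 of the 14161 genes counted. Of these, 80 are cytochrome P450 genes. The remaining one, Cyp1, encodes a cyclophilin, a peptidyl-prolyl isomerase that carries the same prefix by coincidence, and its values are given apart. A further 6 P450 genes, the ecdysone synthesis genes spo, spok, phm, dib, sad and shd, carry other symbols and are described at the end as a related list.

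Cytochrome P450 enzymes are heme proteins that insert oxygen into lipophilic substrates. Most receive electrons from the reductase Cpr in the endoplasmic reticulum, while those of the mitochondrial clan use a ferredoxin chain. In insects, the CYP3 and CYP4 clans are best known for the metabolism of toxins, fatty acids and odorants, and members of the CYP2 and mitochondrial clans make and degrade the molting hormone ecdysone.

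RNA of whole dechorionated embryos was sequenced from OregonR wild type and from embryos laid by mothers with SHMT[X238] germline clones, in 3 libraries for each genotype and collection, 12 in all. The SHMT gene encodes serine hydroxymethyltransferase, which supplies one-carbon units for nucleotide synthesis, and X238 is a nonsense allele that was made homozygous in the germline with heat-shock Flp, Frt[19A] and ovo[D]. The X238 chromosome also carries y, pn and sn. OregonR is not the stock in which X238 arose, so the SHMT allele and the strain background cannot be told apart in any comparison of genotypes. Collections are labelled 0–1 hr (preblastoderm) and 1.5–2.5 hr (late blastoderm) after egg lay. The paper calls the triplicates biological.

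Between 21045142 and 35106444 reads per library were assigned to genes, and 4.57 to 11.7% of their reads fell outside genes, over 11% in replicate 1 of both genotypes at the 0–1 hr label. As sums, the marker genes ran against the stage labels. The 12 zygotic markers, which are switched on in the blastoderm, summed to 11762 to 16307 CPM (counts scaled to a common library size by edgeR's TMM and expressed as CPM) for wild type and to 6849 to 10713 CPM for SHMT at the 0–1 hr label, but to 901 to 993 CPM and 756 to 914 CPM in those labelled 1.5–2.5 hr. The 8 maternal markers summed the other way, at 672 to 828 and 904 to 1079 CPM against 2657 to 2945 and 2087 to 2422 CPM. Of these, 7 were called higher and 1 lower at the 1.5–2.5 hr label in wild type, and 6 and 1 in SHMT (adjusted p under 0.05). The lower gene, twe, averaged 484 and 545 CPM in wild type and SHMT labelled 0–1 hr, against 282 and 275 CPM. All groups are therefore called by their labels, and a label is not taken here as the age of the embryos. Whether the labels were exchanged was not tested. The marker pn ranged from 38.5 to 57.3 CPM in wild type, and from 1.14 to 4.01 CPM in SHMT, whose chromosome carries a pn mutation. None of the 11 eggshell, 7 fat body, yolk and midgut, 5 muscle and nerve or 3 testis markers in the files reached the count minimum, and each of these lists summed to at most 4.82 CPM in any library. Of the 3 oenocyte and epidermis markers in the files 2 were tested, and their sum stood at 1.84 to 2.99 CPM at the 0–1 hr label and at 24.8 to 78.0 CPM at the other. The value of 78.0 CPM came from replicate 2 of SHMT labelled 1.5–2.5 hr, in which the chitin synthase gene kkv reached 56.9 CPM against 0.367 and 0.700 CPM in the other libraries of its group (SHMT against wild type log2 6.43 ± 1.64, adjusted p = 0.0365), and without that library the upper limit was 48.6 CPM. In whole embryos, fewer cells of a type and less RNA per cell cannot be told apart.

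Most P450 genes stayed below the minimum for testing, a mean of 50 counts in at least 1 of the 4 groups. It was reached by 6884 of all 14161 genes and by 20 of the 81 Cyp genes, namely 19 P450 genes (23.8% of 80) and Cyp1. A further 16 reached a mean of 10 to 50, 38 stayed under 10, and 7 (Cyp4d21, Cyp313a5, Cyp316a1, Cyp313a2, Cyp308a1, Cyp6a18 and Cyp4g15) had no read in any library. The tested genes came mainly from the CYP3 clan, with 13 of 35 members, against 5 of 32 of the CYP4 clan, 1 of 4 of the CYP2 clan (Cyp18a1) and no member of the 9 of the mitochondrial clan. The tested genes with the lowest counts were Cyp4d2 and Cyp18a1, with means of 66.3 and 68.3 counts in their highest group, and those just below the minimum were Cyp6d5 and Cyp12d1-p, with 47 and 45.3.

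A small set of genes supplied most transcripts of the 80 P450 genes with Cyp symbols. Summed over the 80 genes, P450 transcripts of wild type labelled 0–1 hr reached 376, 414 and 407 CPM, those of SHMT with this label 472, 481 and 446 CPM. In the libraries labelled 1.5–2.5 hr wild type reached 745, 861 and 813 CPM, while SHMT reached 876, 803 and 755 CPM. The sums at the 2 labels did not overlap in either genotype, and those of the genotypes did not overlap at the 0–1 hr label but did at the 1.5–2.5 hr label. The 3 most counted genes took 66.0 to 77.8% of all P450 reads of a library. Among the 80 genes the sum of the CYP3 clan differed most between labels, and Cyp6a19 supplied most of that difference. Cyp6a19 averaged 1.41 and 1.59 CPM in wild type and SHMT labelled 0–1 hr, against 331 and 307 CPM at the 1.5–2.5 hr label. Some members of the clan, such as Cyp310a1, went the other way. The sums of the clan were 305 ± 15.5 and 336 ± 16.5 CPM (SD, n = 3) in wild type and SHMT labelled 0–1 hr. At the 1.5–2.5 hr label they were 731 ± 56.7 and 730 ± 55.9 CPM. The CYP4 clan stood at 86.2 ± 5.71 and 129 ± 2.14 CPM against 74.8 ± 2.29 and 80.5 ± 7.24 CPM.

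**Figure D1:**
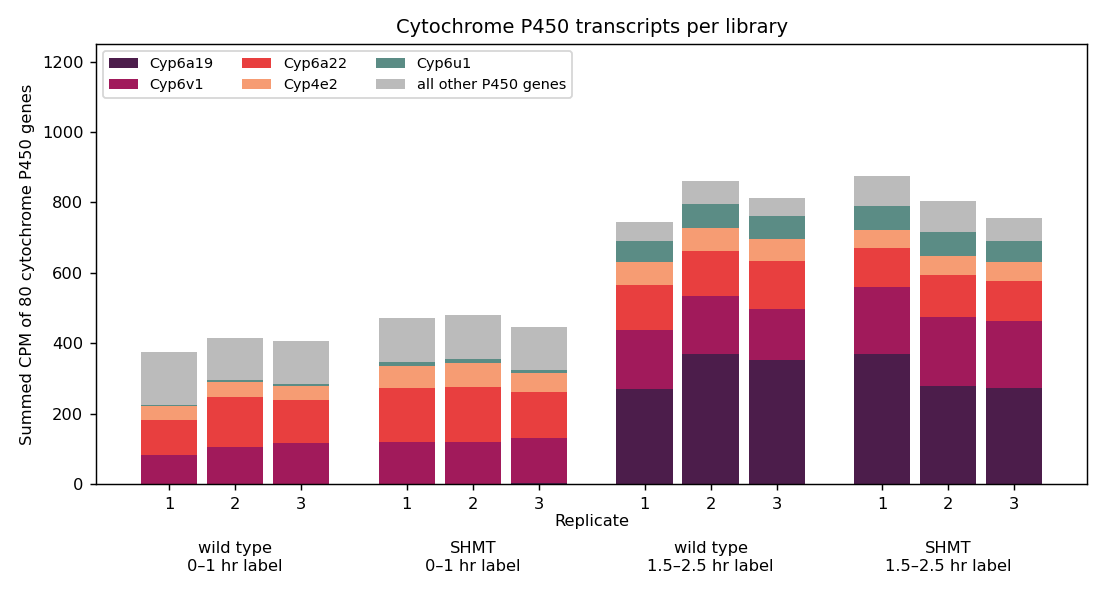
Summed CPM of the 80 cytochrome P450 genes in each library (bars, 3 replicates per group), with the 5 genes of highest level as separate colours and all others in grey. The sums are 376 to 481 CPM in the libraries labelled 0–1 hr and 745 to 876 CPM in those labelled 1.5–2.5 hr, where Cyp6a19 makes up the largest block.

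Levels per kilobase of exon (CPM per kb, gene models of BDGP6) rank the 19 tested P450 genes with Cyp symbols within a group. In the wild-type libraries labelled 0–1 hr, Cyp6a22 came first with 56.3 ± 9.27 CPM per kb (SD, n = 3), ahead of Cyp6v1 with 33.2 ± 5.77 and Cyp4e2 with 21.4 ± 1.40. Cyp310a1 lay between the latter with a mean of 28.3 and overlapped both, since its libraries spread from 35.0 to 65.9 CPM before the division by length. In the SHMT libraries with that label Cyp4p2, at 27.8 ± 1.40 CPM per kb, ranked 4, against a rank of 16 and 0.432 ± 0.279 CPM per kb in wild type. At the 1.5–2.5 hr label Cyp6a19 led in both genotypes, with 173 ± 27.5 and 160 ± 28.0 CPM per kb. The next were Cyp6a22 (60.2 ± 1.71) and Cyp6v1 (52.6 ± 3.66) in wild type and Cyp6v1 (64.0 ± 1.14) and Cyp6a22 (52.6 ± 1.78) in SHMT.

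**Figure D2:**
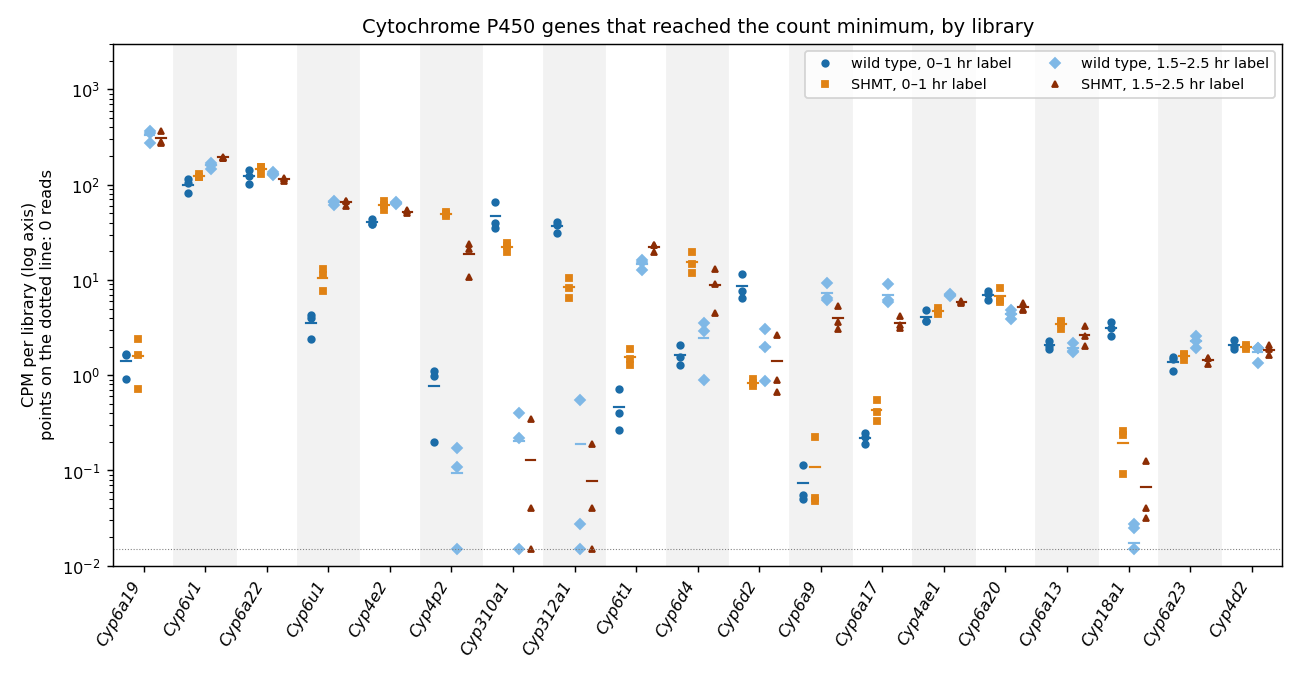
CPM of the 19 tested cytochrome P450 genes in each of the 12 libraries on a log axis (points), with the mean of each group as a short line. Points on the dotted line had 0 reads. Cyp6a19 spans 0.714 to 370 CPM, while Cyp4d2 stays between 1.36 and 2.31 CPM in all 12 libraries.

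The comparison of the stage labels asks how P450 transcripts differed between the collections of 1 genotype. In wild type, 10 of the 20 tested Cyp genes were higher and 6 lower in the libraries labelled 1.5–2.5 hr (adjusted p under 0.05), where 45.4% of all 6884 tested genes were called higher and 45.9% lower. In SHMT, 7 were higher and 6 lower, against 42.8% and 44.6% of all genes. The cyclophilin Cyp1 is 1 of the 20 and was called higher in both genotypes. Without it, 9 of 19 P450 genes were higher in wild type and 6 of 19 in SHMT. The members' median log2 difference was 0.63 in wild type and -0.12 in SHMT, beside -0.04 and -0.06 for all genes. With the fold limit of the study, 16-fold between labels, 5 members were higher and 3 lower in wild type (11.7% and 4.71% of all genes) and 2 higher and 2 lower in SHMT (5.48% and 3.99%). The 3 libraries of each label did not overlap for 10 members higher and 6 lower in wild type (45.6% and 46.3% of all genes) and for 8 and 6 in SHMT (43.5% and 45.4%). Called higher in both genotypes were 7 members and lower in both 4, against 40.4% and 41.3% of all genes. Since genes enter the test through their highest group, these shares say nothing about the 61 members that were not tested.

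Cyp6a19 had the largest difference between labels of the tested members that were higher. At the 0–1 hr label Cyp6a19 gave 0.911, 1.67 and 1.64 CPM for wild type, with 0.714, 1.63 and 2.42 CPM for SHMT. At the 1.5–2.5 hr label it gave 271, 370 and 352 CPM for wild type, with 368, 278 and 273 CPM for SHMT. Every library labelled 1.5–2.5 hr was thus far above every library labelled 0–1 hr. The log2 difference was 7.91 ± 0.34 (SE, adjusted p = 5.42e-10) in wild type and 7.60 ± 0.33 (adjusted p = 1.42e-09) in SHMT, and the genotypes did not differ detectably at either label (adjusted p = 0.680 and 0.870).

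The CYP3-clan genes Cyp6u1, Cyp6t1, Cyp6a17 and Cyp6a9 followed this direction at lower levels. Cyp6u1 stood at 2.43, 4.29 and 3.98 CPM in wild type labelled 0–1 hr and at 61.3, 67.9 and 66.0 CPM labelled 1.5–2.5 hr, a log2 difference of 4.21 ± 0.22 (adjusted p = 2.54e-09). Cyp6t1 stood at 0.266, 0.725 and 0.398 against 12.6, 16.2 and 15.5 CPM, a log2 difference of 5.05 ± 0.27 (adjusted p = 3.11e-09). Neither gene's groups overlapped. Cyp6a17, known in adult flies for its part in temperature preference, stood at 0.190, 0.223 and 0.248 against 6.12, 9.06 and 5.83 CPM (log2 4.98 ± 0.30, adjusted p = 9.10e-09). Cyp6a9 had 5 reads in all 3 wild-type libraries labelled 0–1 hr and 831 in those labelled 1.5–2.5 hr, at 6.09, 9.23 and 6.45 CPM (log2 6.47 ± 0.46, adjusted p = 3.81e-08). In SHMT the differences of these 4 genes had the same direction and ranged from 2.62 ± 0.20 (Cyp6u1) to 5.09 ± 0.45 (Cyp6a9). The exons of Cyp6a9 and Cyp6a19 overlap on opposite strands in the BDGP6 models, and no source used here states whether the counting used strand, so the reads of the pair may be split or lost. Cyp6u1 shares exon sequence with CG30157 (Ufsp1) on the same strand, which stood at 1.32 ± 0.201 to 2.04 ± 0.196 CPM (SD, n = 3) in the 4 groups.

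Smaller differences were called for 4 abundant or evenly expressed genes. Cyp6v1 stood at 81.2, 105 and 115 CPM against 168, 163 and 147 CPM in wild type (log2 0.66 ± 0.11, adjusted p = 1.25e-04) and differed by the same log2 0.66 ± 0.11 in SHMT (adjusted p = 1.52e-04). Cyp4ae1 was higher by log2 0.78 ± 0.14 (adjusted p = 1.88e-04) and Cyp6a23 by 0.71 ± 0.20 (adjusted p = 0.00542) in wild type, while in SHMT they stood at 0.30 ± 0.14 (adjusted p = 0.0645) and -0.13 ± 0.21 (adjusted p = 0.564). Cyp4ae1 was called in SHMT with replicate 2 of wild type labelled 0–1 hr left out (adjusted p = 0.0244). Cyp4e2 stood at 39.0, 43.6 and 39.0 CPM against 63.6, 65.9 and 63.0 CPM in wild type (log2 0.66 ± 0.09, adjusted p = 1.88e-05), and at 62.0, 68.2 and 54.8 against 50.2, 54.3 and 52.4 CPM in SHMT. The SHMT groups just failed to overlap, with a log2 difference of -0.24 ± 0.09 (adjusted p = 0.0273). That SHMT call was lost in 8 of the 12 fits that left out 1 library (adjusted p 0.0577 to 0.242) and kept without replicate 1 of wild type labelled 0–1 hr, replicate 2 of either genotype labelled 1.5–2.5 hr or replicate 3 of SHMT labelled 0–1 hr. With library sizes alone, without TMM scaling, its sign turned (log2 0.04, adjusted p = 0.755).

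Cyp310a1 and Cyp312a1 had the opposite pattern. Cyp310a1 (CYP3 clan) gave 65.9, 35.0 and 39.8 CPM for wild type labelled 0–1 hr, with 24.6, 22.8 and 19.8 CPM for SHMT. In those labelled 1.5–2.5 hr it stood at 0.220, 0.398 and 0 CPM and at 0.0408, 0.350 and 0 CPM. The log2 difference between labels was -7.77 ± 0.57 (adjusted p = 4.70e-08) in wild type and -7.31 ± 0.63 (adjusted p = 2.73e-07) in SHMT. Cyp312a1 (CYP4 clan) stood at 31.1, 37.8 and 40.4 CPM and at 8.14, 6.53 and 10.5 CPM at the 0–1 hr label, and no library labelled 1.5–2.5 hr exceeded 0.547 CPM (log2 -7.47 ± 0.63 and -6.63 ± 0.76, adjusted p = 1.73e-07 and 3.92e-06). These 2 genes share the direction of the 12 zygotic markers, of which all 12 were called lower at the 1.5–2.5 hr label in both genotypes.

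Cyp18a1, which inactivates ecdysone and its active form by hydroxylation, was seen almost only in one group. It had 205 reads in the wild-type libraries labelled 0–1 hr, at 3.64, 2.57 and 3.13 CPM, and 12, 2 and 6 reads in SHMT labelled 0–1 hr, wild type labelled 1.5–2.5 hr and SHMT labelled 1.5–2.5 hr. The ratio of the wild-type labels was 181 (95% exact interval 49.4 to 1501, counting error only), and the edgeR test gave an adjusted p of 3.62e-08. In SHMT the labels were not told apart (log2 -1.43 ± 0.64, adjusted p = 0.0537). That comparison was called with replicate 3 of wild type labelled 1.5–2.5 hr (adjusted p = 0.0485), replicate 2 of SHMT labelled 0–1 hr (0.0255) or replicate 2 of SHMT labelled 1.5–2.5 hr (0.0173) left out.

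The other members that were lower at the 1.5–2.5 hr label differed less. Cyp6d2, known for its part in resistance to camptothecin, stood at 11.6, 7.64 and 6.41 CPM against 3.05, 1.99 and 0.868 CPM in wild type (log2 -2.12 ± 0.49, adjusted p = 0.00133), and the SHMT labels overlapped. Cyp6a20, known in adult males for its part in aggression, stood at log2 -0.68 ± 0.17 (adjusted p = 0.00246) in wild type, a call lost with library sizes alone (adjusted p = 0.413), and at -0.39 ± 0.17 (adjusted p = 0.0483) in SHMT. The SHMT call of Cyp6a20 was lost in 8 of the 12 fits without 1 library (adjusted p 0.0558 to 0.337) and kept without replicate 1 of either genotype or replicate 3 of SHMT labelled 0–1 hr, or replicate 2 of SHMT labelled 1.5–2.5 hr. Cyp6a22, at 153, 154 and 130 CPM against 110, 118 and 114 CPM in SHMT, was called only in that genotype (log2 -0.35 ± 0.11, adjusted p = 0.0113). Its call was lost without replicate 2 of SHMT labelled 0–1 hr (adjusted p = 0.0705) or replicate 3 of SHMT labelled 1.5–2.5 hr (0.0510), and in wild type it stood at log2 0.10 ± 0.11 (adjusted p = 0.421), called without replicate 2 of wild type labelled 0–1 hr (0.0451). Cyp4p2 was lower in both genotypes, by log2 -2.94 ± 0.81 (adjusted p = 0.00430) in wild type, where it had 50 and 11 reads, and by -1.41 ± 0.33 (adjusted p = 0.00143) in SHMT.

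**Figure D3:**
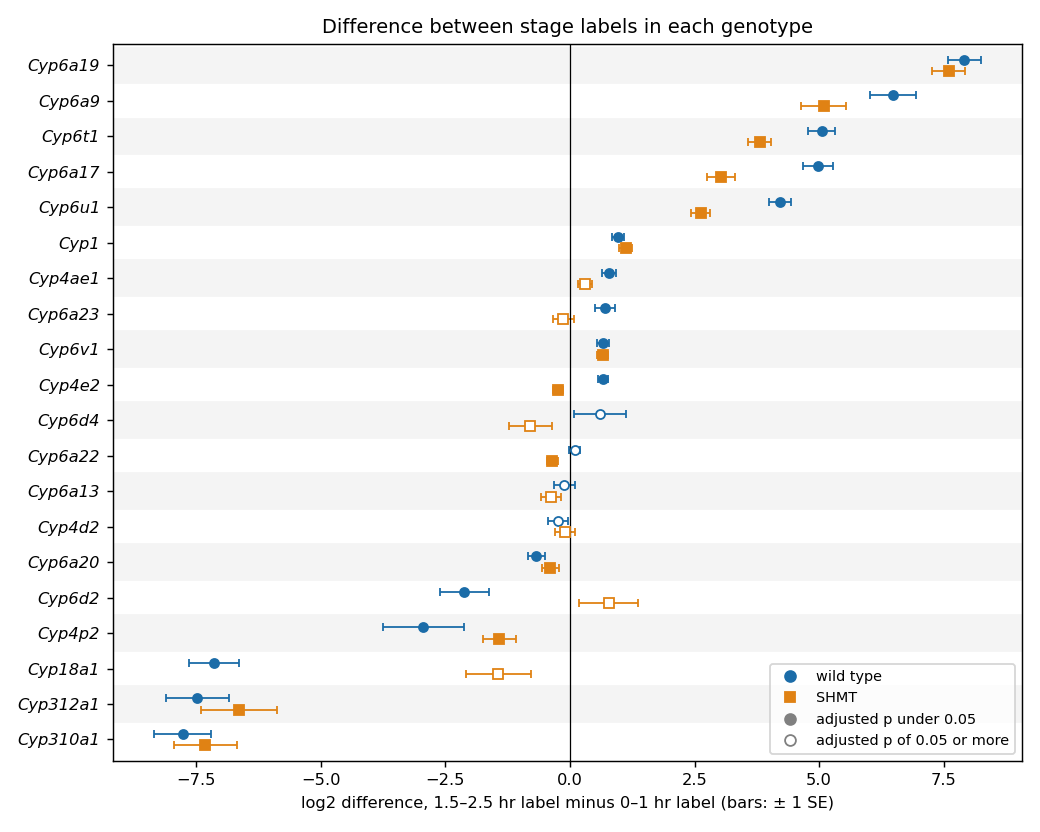
Log2 difference of the 20 tested Cyp genes between the libraries labelled 1.5–2.5 hr and those labelled 0–1 hr, in wild type (circles) and SHMT (squares), with ± 1 SE of the edgeR fit over 12 libraries as bars and filled symbols for an adjusted p under 0.05. Wild-type values run from 7.91 for Cyp6a19 to -7.77 for Cyp310a1, and Cyp18a1 (-7.14 and -1.43) shows the widest gap between the genotypes.

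The comparison of genotypes asks which P450 transcripts differed in embryos from SHMT[X238] germline clones. At the 0–1 hr label 7 of the 20 tested members were higher in SHMT and 4 lower, where 32.9% of all tested genes were called higher and 25.8% lower. The members' median log2 difference was 0.24, beside 0.02 for all genes. The 3 libraries of each genotype did not overlap for 8 members that were higher and 4 that were lower in SHMT, against 32.7% and 27.3% of all genes. Over the 4-fold limit of the study, 2 were higher (Cyp4p2 and Cyp6d4) and 3 lower (Cyp18a1, Cyp6d2 and Cyp312a1), against 2.7% and 1.38% of all genes. The zygotic markers were also lower in these SHMT libraries, with 6 of 12 called lower and sums that did not overlap (above), and 3 of 8 maternal markers were called higher. Their part in the values of the Cyp genes was not tested.

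Cyp4p2, a CYP4-clan gene, had the largest genotype difference of the tested members. Among libraries labelled 0–1 hr, Cyp4p2 gave 0.986, 1.12 and 0.199 CPM for wild type, with 49.3, 47.0 and 52.0 CPM for SHMT, a log2 difference of 5.99 ± 0.45 (adjusted p = 1.58e-06). Among those labelled 1.5–2.5 hr it gave 0.110, 0.174 and 0 CPM against 24.0, 21.0 and 10.7 CPM (log2 7.52 ± 0.56, adjusted p = 7.55e-06). Every SHMT library was above every wild-type library at both labels. Its neighbour Cyp4p1, below the count minimum, had 14 and 2 reads for wild type labelled 0–1 and 1.5–2.5 hr, but 92 and 40 for SHMT. In the fit without a count minimum Cyp4p1 was higher in SHMT by log2 2.85 ± 0.49 (adjusted p = 1.92e-04) at the 0–1 hr label, and at the 1.5–2.5 hr label the ratio of its counts was 26.0 (95% exact interval 6.74 to 222, counting error only). Cyp4p2 had 3080 and 1585 reads in the SHMT groups, and whether some were assigned to Cyp4p1 was not tested. Cyp4p3, the third gene of this run on arm 2R, stayed under a mean of 10 counts.

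Cyp6d4 was the other member called higher in SHMT at both labels. It stood at 1.29, 2.06 and 1.54 CPM against 14.8, 19.7 and 11.7 CPM at the 0–1 hr label (log2 3.26 ± 0.51, adjusted p = 2.75e-04) and at 2.91, 3.51 and 0.895 CPM against 9.06, 13.2 and 4.45 CPM at the 1.5–2.5 hr label (log2 1.86 ± 0.46, adjusted p = 0.0321). The groups did not overlap at either label. The call at the 1.5–2.5 hr label was lost without replicate 1 (adjusted p = 0.0829) or 3 (0.0812) of wild type with that label. It was also lost without replicate 1 (0.0869) or 2 (0.124) of SHMT with that label, and without the pair of libraries with over 11% outside genes (0.0539).

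Cyp6u1 and Cyp6t1, which were low at the 0–1 hr label, were less low in SHMT. Cyp6u1 stood at 12.9, 11.2 and 7.67 CPM in SHMT against 2.43 to 4.29 CPM in wild type (log2 1.60 ± 0.22, adjusted p = 9.96e-05) and Cyp6t1 at 1.48, 1.91 and 1.29 CPM against 0.266 to 0.725 CPM (log2 1.82 ± 0.32, adjusted p = 5.58e-04). Smaller differences were called for Cyp6a13 (log2 0.74 ± 0.21, adjusted p = 0.0115), Cyp4e2 (0.61 ± 0.09, adjusted p = 2.24e-04) and Cyp6v1 (0.29 ± 0.11, adjusted p = 0.0444). The call of Cyp6v1 was lost with any 1 of 11 libraries left out (adjusted p 0.0543 to 0.145), all but replicate 3 of wild type labelled 0–1 hr.

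Lower in SHMT at the 0–1 hr label were Cyp18a1, Cyp6d2, Cyp312a1 and Cyp310a1. Cyp18a1 stood at 0.238, 0.0907 and 0.258 CPM against 2.57 to 3.64 CPM in wild type (log2 -3.99 ± 0.40, adjusted p = 1.12e-05). Cyp6d2 stood at 0.762, 0.907 and 0.824 CPM against 6.41 to 11.6 CPM (log2 -3.36 ± 0.56, adjusted p = 4.33e-04). Its exons overlap CG3875 (nsr) on the opposite strand, which stayed at or below a mean of 0.228 CPM in every group. Cyp312a1 stood at 6.53 to 10.5 CPM against 31.1 to 40.4 CPM (log2 -2.12 ± 0.44, adjusted p = 0.00169), but DESeq2 did not call it (adjusted p = 0.107). Cyp310a1, at 19.8 to 24.6 against 35.0 to 65.9 CPM (log2 -1.07 ± 0.37, adjusted p = 0.0263), was not called by DESeq2 (adjusted p = 0.365), with library sizes alone (0.0792), without the pair of libraries with over 11% outside genes (0.200), nor without replicate 1 of wild type labelled 0–1 hr (0.108) or replicate 1 (0.0530), 2 (0.0553) or 3 (0.0560) of SHMT with that label. None of the 4 genes' groups overlapped.

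At the 1.5–2.5 hr label 3 members were called, Cyp4p2 and Cyp6d4 higher and Cyp6a17 lower, against 2.85% of all tested genes higher and 4.15% lower. The members' median log2 difference was -0.05, beside -0.02 for all genes. Cyp4p2 alone passed 4-fold, as did 0.654% of all genes upward (0.523% downward). Cyp6a17 gave 6.12, 9.06 and 5.83 CPM for wild type, with 4.20, 3.15 and 3.37 CPM for SHMT, which did not overlap (log2 -0.97 ± 0.21, adjusted p = 0.0151). Leaving out replicate 2 of wild type labelled 1.5–2.5 hr ended that call (adjusted p = 0.0744), as did leaving out SHMT replicate 2 (0.0668) or replicate 3 (0.0661) of the same label. The groups did not overlap for 6 members higher and 6 lower, against 14.5% and 22.3% of all genes. Of these 12 members 9 were not called, among them Cyp6a23 (log2 -0.65 ± 0.20, adjusted p = 0.0786), Cyp6a9 (-0.87 ± 0.27, adjusted p = 0.0900), Cyp6t1 (12.6 to 16.2 against 19.5 to 23.3 CPM, log2 0.57 ± 0.18, adjusted p = 0.0998), Cyp6v1 (147 to 168 against 191 to 198 CPM, log2 0.28 ± 0.11, adjusted p = 0.191) and Cyp4e2 (63.0 to 65.9 against 50.2 to 54.3 CPM, log2 -0.30 ± 0.09, adjusted p = 0.0824). DESeq2 called the latter 3 (adjusted p = 0.00858, 0.0138 and 0.0356), and so did edgeR on the 6 libraries of this label alone (adjusted p = 0.0102, 0.0156 and 0.00892). Leaving out replicate 1 or 2 of wild type labelled 0–1 hr called Cyp6t1 (adjusted p = 0.0461 and 0.0437), replicate 1 of that group called Cyp6v1 (0.0452) and replicate 3 of SHMT labelled 0–1 hr called Cyp4e2 (0.0374).

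**Figure D4:**
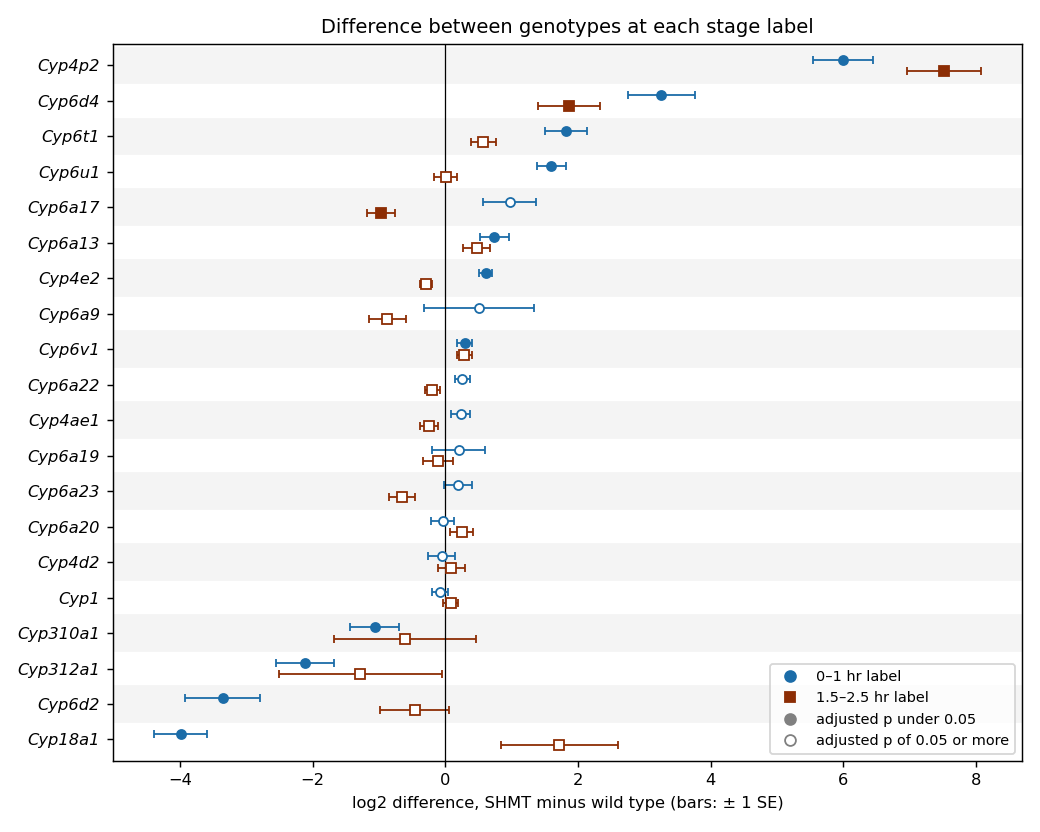
Log2 difference of the 20 tested Cyp genes between SHMT and wild type at the 0–1 hr label (circles) and the 1.5–2.5 hr label (squares), with ± 1 SE of the edgeR fit as bars and filled symbols for an adjusted p under 0.05. Cyp4p2 (5.99 and 7.52) and Cyp6d4 (3.26 and 1.86) are filled at both labels, and Cyp18a1 has the lowest value at the 0–1 hr label (-3.99).

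The interaction tests whether the difference between labels was the same in both genotypes, which is equally the change of the genotype difference from one label to the other. It was called for 8 of the 20 members, 2 higher and 6 lower, against 12.2% and 26.3% of all tested genes. The members' median was -0.29, beside -0.05 for all genes. Cyp18a1 (log2 5.71 ± 1.05, adjusted p = 0.00148) and Cyp6d2 (2.90 ± 0.76, adjusted p = 0.0115) were the 2 that passed 4-fold, as did 0.712% of all genes upward (2.5% downward). Both were low in SHMT at the 0–1 hr label and low in both genotypes at the other. Without the pair of libraries with over 11% outside genes, the calls of Cyp6d2 (adjusted p = 0.0601), Cyp6t1 (0.0798), Cyp6a22 (0.103) and Cyp6a23 (0.0734) were lost. The 6 lower were Cyp6a17 (-1.94 ± 0.45), Cyp6u1 (-1.59 ± 0.28), Cyp6t1 (-1.24 ± 0.37), Cyp4e2 (-0.90 ± 0.13), Cyp6a23 (-0.84 ± 0.29) and Cyp6a22 (-0.45 ± 0.16). Cyp6u1, Cyp6t1 and Cyp6a17 had a smaller difference between labels in SHMT, at 2.62, 3.81 and 3.03 against 4.21, 5.05 and 4.98 in wild type, and Cyp4e2 was the one member called in opposite directions. The calls of Cyp6a22 and Cyp6a23 were lost in 10 and 8 of the 12 fits without 1 library (adjusted p 0.0588 to 0.118 and 0.0503 to 0.0977). Cyp6a22 kept it without replicate 2 of wild type or 3 of SHMT labelled 0–1 hr, and Cyp6a23 without replicate 1 or 3 of wild type labelled 0–1 hr, replicate 2 of wild type labelled 1.5–2.5 hr or replicate 3 of SHMT labelled 0–1 hr. Cyp6t1 lost it without replicate 1 (0.0674) or 3 (0.0530) of wild type or replicate 2 (0.0623) of SHMT labelled 0–1 hr.

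Of the members that have no call between genotypes at either label, Cyp4d2 was called in none of the 5 comparisons. It ranged from 1.89 to 2.31 CPM for wild type labelled 0–1 hr, from 1.36 to 1.95 CPM for wild type labelled 1.5–2.5 hr, and from 1.63 to 2.07 CPM for SHMT labelled 1.5–2.5 hr, so that these groups overlapped. Cyp4d2 and Cyp4ae1 are neighbours on the X chromosome and both overlap the antisense RNA asRNA:CR44690. The cyclophilin Cyp1, counted 392464 times, was far above all P450 genes, at 750, 891 and 610 CPM for wild type labelled 0–1 hr, with 695, 656 and 777 CPM for SHMT. It was higher at the 1.5–2.5 hr label in wild type (1379, 1554 and 1439 CPM, log2 0.96 ± 0.12, adjusted p = 8.53e-06) and in SHMT (1501, 1621 and 1490 CPM, log2 1.12 ± 0.12, adjusted p = 2.48e-06), with no overlap, and the genotypes overlapped at both labels.

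By the gene order of the assembly Release 6, 41 of the 81 genes lie in 14 runs of adjacent Cyp genes, and the longest is a run of 9 on arm 2R with 6 tested members, which did not share 1 pattern. Within it Cyp6a19, Cyp6a17 and Cyp6a9 were higher at the 1.5–2.5 hr label in both genotypes, Cyp6a20 was lower in both, and Cyp6a22 stood at 101 to 154 CPM in all 12 libraries. At that label Cyp6a19 exceeded Cyp6a22, at 331 ± 52.6 against 130 ± 3.70 CPM in wild type (SD, n = 3), and at the 0–1 hr label Cyp6a22 exceeded Cyp6a19, at 122 ± 20.1 against 1.41 ± 0.431 CPM. Per kilobase of exon this order was the same. The remaining genes of the run, Cyp317a1, Cyp6a8 and Cyp6a21, were below the count minimum. Reads from such near copies can be assigned to either gene or discarded by the alignment, so the levels of the low members beside Cyp6a19 and Cyp6a22 are uncertain.

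**Figure D5:**
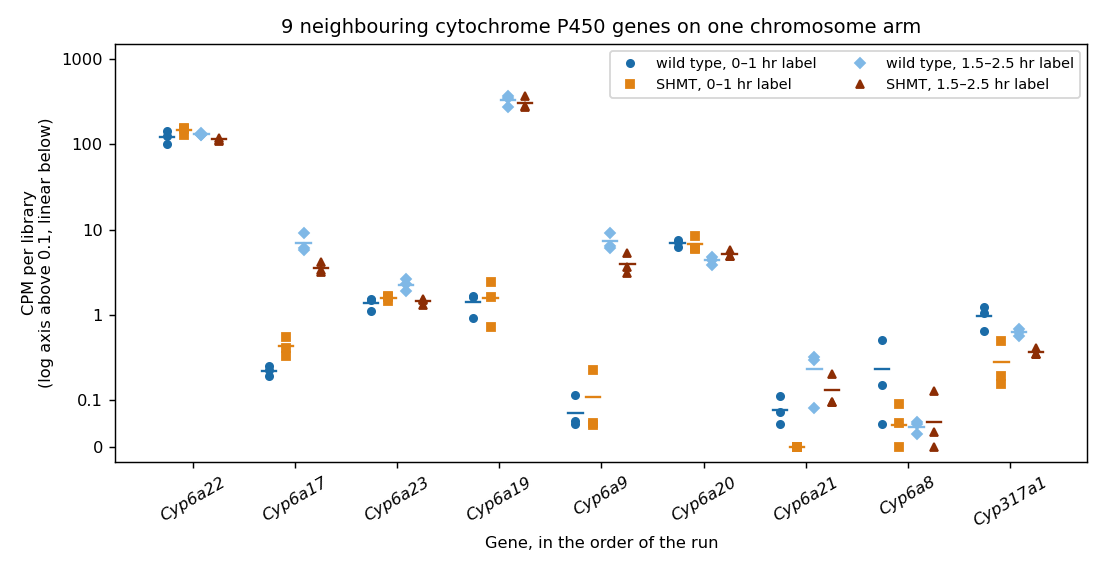
CPM of the 9 adjacent cytochrome P450 genes on arm 2R in each library (points, 3 per group, group means as short lines), in the order of the genes, on an axis that is logarithmic above 0.1 and linear below. Cyp6a19 changes from 1.41 to 331 CPM (wild-type means) between the labels. The genes next to it, Cyp6a23 and Cyp6a9, change from 1.38 to 2.27 and from 0.0731 to 7.26 CPM. Cyp6a22 and Cyp6a20, which are not next to Cyp6a19, stay within 101 to 154 and 3.88 to 8.30 CPM.

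The 16 members with a mean of 10 to 50 counts were examined in a fit without a count minimum (12206 genes). They entered this class through their highest group, so their values are given gene by gene with no count of directions. Several are known as xenobiotic-inducible genes. Cyp12d1-p, of the mitochondrial clan, gave 2.66, 1.84 and 1.64 CPM for wild type labelled 0–1 hr, with 0.476, 0.272 and 0.258 CPM for SHMT (log2 -2.53 ± 0.48, adjusted p = 4.43e-04). Its neighbour Cyp12d1-d had 2 reads in all, and whether reads were lost or misassigned between these 2 genes was not tested. Cyp6a2 had 71 reads in wild type labelled 0–1 hr and 1 in wild type labelled 1.5–2.5 hr, a ratio of 125 (95% exact interval 21.7 to 5010), with 21 and 5 reads in SHMT. Cyp6d5 stood at 4.06, 0.781 and 0.994 CPM and at 0.619, 0.272 and 0.103 CPM (log2 -2.48 ± 0.61, adjusted p = 0.00400), where replicate 1 of wild type was far above the other libraries. These wild-type and SHMT groups did not overlap.

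Several low members were read mostly at 1 label, and of those with a mean of 10 to 50 counts Cyp28d1 and Cyp4d20 had no read at the other in either genotype. Cyp28d1 had 69 and 24 reads in wild type and SHMT labelled 0–1 hr and none in the 6 libraries labelled 1.5–2.5 hr, so it was at least 40.5-fold and 11.2-fold higher at the 0–1 hr label, taking 3 counts over the group as the limit. Cyp4d20 had 40 and 7 reads against 0 and 0 (at least 23.5-fold and 3.26-fold higher), and Cyp309a1 49 and 18 against 0 and 1 (at least 28.8-fold in wild type, and a ratio of 25.2 with an interval of 3.98 to 1049 in SHMT). Its neighbour Cyp309a2 had 63 and 23 reads against 9 and 5, and Cyp305a1, of the CYP2 clan, 110 and 41 against 7 and 9. In the other direction, Cyp311a1 had 3 and 1 reads labelled 0–1 hr and 36 and 36 labelled 1.5–2.5 hr, Cyp4d1 17 and 7 against 94 and 34, and Cyp9f2 18 and 13 against 85 and 39.

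Some of these genes differed between genotypes at the 1.5–2.5 hr label. Cyp4p1 was higher in SHMT (above). Cyp6t3, which has a role in ecdysone synthesis in the larval prothoracic gland, had 52 reads in wild type and 4 in SHMT, at 0.220, 0.647 and 0.488 against 0.0408, 0.0636 and 0.0318 CPM (log2 -3.22 ± 0.64, adjusted p = 0.00443). Its neighbour Cyp6g2 had 33 and 2 reads, a ratio of 12.7 (95% exact interval 3.25 to 109). Cyp6g2 overlaps Cyp6g1, and Cyp6t3 overlaps CG8858, each on the opposite strand. The interaction was called for Cyp6a2 (log2 3.90 ± 1.34, adjusted p = 0.0485). The 2 remaining members of this class, Cyp317a1 and Cyp6w1, had 63 and 33 reads in wild type labelled 0–1 hr against 18 and 10 in SHMT. The 38 members below a mean of 10 counts had 1 to 80 reads over all 12 libraries.

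Of the 6 P450 genes of ecdysone synthesis that carry other symbols, 4 were tested (spo, phm, dib and sad), and all 4 were lower at the 1.5–2.5 hr label in both genotypes, with log2 differences of -5.70 ± 0.44 (sad) to -7.46 ± 0.78 (dib) in wild type. In SHMT, where dib had no read at that label, sad, spo and phm stood at -6.51 ± 0.54, -6.99 ± 0.66 and -6.55 ± 0.72. spo, which acts early in the pathway, gave 162, 112 and 131 CPM for wild type labelled 0–1 hr, with 167, 195 and 303 CPM for SHMT. Between genotypes phm alone was called, lower in SHMT at the 0–1 hr label (log2 -1.17 ± 0.41, adjusted p = 0.0292), while sad stood at -0.80 ± 0.32 (adjusted p = 0.0501), dib at -0.51 ± 0.47 and spo at 0.71 ± 0.48. Of 9 tested ecdysone response genes, 1 was higher and 4 lower in SHMT at that label (32.9% and 25.8% of all genes), among the lower Eip71CD (log2 -1.63 ± 0.13, adjusted p = 2.11e-06) and ImpL1 (-1.91 ± 0.34, adjusted p = 7.04e-04).

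A list of genes around the supply of electrons and heme to P450 enzymes had 14 in the files, of which 13 were tested. In wild type 10 of these genes were higher at the 1.5–2.5 hr label while 2 were lower (45.4% and 45.9% of all genes), and in SHMT 9 were higher while 3 were lower (42.8% and 44.6%). Coprox, which encodes coproporphyrinogen oxidase of heme synthesis, was higher by log2 3.96 ± 0.16 in wild type, with 2.99 ± 0.15 in SHMT. Cpr, the reductase for microsomal P450 enzymes, stood at 585 ± 111 and 563 ± 56.9 CPM (SD, n = 3) in wild type and SHMT labelled 0–1 hr and at 362 ± 25.3 and 363 ± 9.65 CPM at the other label. Between genotypes 10 were higher and none lower in SHMT at the 0–1 hr label (32.9% and 25.8% of all genes), among them dare, the reductase of the mitochondrial ferredoxin chain (log2 1.25 ± 0.22, adjusted p = 5.10e-04), and Coprox (0.85 ± 0.15, adjusted p = 7.57e-04), and at the 1.5–2.5 hr label the lowest adjusted p was 0.0785 (Pbgs). Cyt-b5-r, the listed gene that was not tested, had 80 and 88 reads in the wild-type groups and 5 and 7 in the SHMT groups.

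Of 14 tested sensors and regulators of P450 genes, each genotype had 10 called higher and 4 called lower at the 1.5–2.5 hr label, where 45.4% and 45.9% of all genes were called in wild type and 42.8% and 44.6% in SHMT. Hr96, a nuclear receptor for xenobiotics, was higher by log2 5.90 ± 0.28 in wild type and 5.56 ± 0.27 in SHMT. cnc, the fly homolog of Nrf2, averaged 20.3 ± 1.96 CPM for wild type labelled 0–1 hr, with 66.7 ± 22.3 CPM for SHMT (log2 1.71 ± 0.19, adjusted p = 2.22e-05). At that label 7 were higher and 5 lower in SHMT (32.9% and 25.8% of all genes), and at the 1.5–2.5 hr label the juvenile hormone receptor Met was called lower (log2 -0.77 ± 0.15, adjusted p = 0.00723). Of 7 tested enzymes that act after P450 oxidation, 3 were higher and 3 lower in SHMT at the 0–1 hr label (32.9% and 25.8% of all genes) and 1 higher and 4 lower at the 1.5–2.5 hr label (2.85% and 4.15%). The glycosyltransferase gene Ugt86Da was higher at the former (log2 1.70 ± 0.22, adjusted p = 6.19e-05) and Dot at the latter (1.29 ± 0.22, adjusted p = 0.00368). Jheh1, a juvenile hormone epoxide hydrolase, was lower in SHMT at both labels (log2 -1.65 ± 0.12 and -1.17 ± 0.12, adjusted p = 1.26e-06 and 9.04e-05), as was the glucuronosyltransferase gene Ugt58Fa (-4.68 ± 0.48 and -2.24 ± 0.39, adjusted p = 1.25e-05 and 0.00417).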

How the data were processed

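Total RNA of whole embryos was extracted with Trizol and sequenced on a HiSeq2000. Per the study's methods and the submitters' processing notes, the authors made reads with CASAVA 1.8.2, aligned them to the dm3 assembly with Bowtie2 2.1.0 and counted them with HTSeq (version and strand setting not given in the sources used here). The deposited values are raw read counts per gene, in 1 table per library, with groups taken from the sample labels. Summary lines for reads outside genes (4.57 to 11.7%) or ambiguous (1.33 to 1.53%) stayed out of library sizes.

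The 6884 genes whose mean reached 50 counts in any group entered edgeR 4.0.16 in R 4.3.3, with TMM scaling, 4 group means over all 12 libraries and quasi-likelihood F tests, adjusted by Benjamini-Hochberg over all tested genes. A gene was called at an adjusted p under 0.05, and the fold limits of the study (4 between genotypes, 16 between stages) were applied as a second rule. The SE is the log2 difference divided by the square root of F, and CPM are counts relative to the TMM-scaled library size. Named are the tested members, the members with a mean of 10 to 50 counts and the leading genes of each list. The members and gene lists were chosen with earlier results of these data known. Alternatives were RLE scaling, library sizes alone, DESeq2 1.42.0, other count minimums, fits of only the groups compared, a replicate block, a threshold of 0.01, exchanged stage labels, and leaving out each library or the pair with over 11% outside genes. Comparisons share libraries and are not independent. Gene names, neighbours and exon lengths came from BDGP6 (Release 6), and no coordinates were used. The fits were tested on simulated data. Tables and figures were made with Python 3.11.15, pandas 2.3.3, SciPy 1.17.1 and matplotlib 3.10.9.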

Additional observations from a re-analysis of the deposited data

Results flagged for a closer look

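For 8 members the difference between the stage labels differed between wild type and SHMT by the interaction test in edgeR (adjusted p under 0.05). The interaction, the SHMT difference minus the wild-type difference on the log2 scale, was 5.71 for Cyp18a1, 2.90 for Cyp6d2, -1.94 for Cyp6a17, -1.59 for Cyp6u1, -1.24 for Cyp6t1, -0.90 for Cyp4e2, -0.84 for Cyp6a23 and -0.45 for Cyp6a22. The value of Cyp18a1 rests on 2 reads in wild type and 6 in SHMT at the 1.5–2.5 hr label.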

How the results depend on the processing

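Of the 51 calls of members, 37 were kept in every alternative that tested the gene, the exchange of labels aside, and 14 changed in at least 1. With any 1 library left out, 41 were kept and 10 were lost at least once. Over these fits the members called higher and lower numbered 6 to 7 and 3 to 6 between genotypes at the 0–1 hr label, 1 to 4 and 0 to 2 at the 1.5–2.5 hr label, 10 to 11 and 6 to 8 between labels in wild type, 7 to 8 and 4 to 8 in SHMT, and 2 to 3 and 3 to 6 for the interaction. In the same order, genes called in either direction numbered 3303 to 4069, 296 to 586, 6156 to 6306, 5856 to 6079 and 2060 to 2970. The fits tested 6841 to 6924 genes.

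The count minimum sets how many members enter: 36 reached a mean of 10 and 74 had at least 1 count. With no minimum, 74 members and 12206 genes were tested, low members included that are read mainly in their highest group. Lower calls numbered 15 (genotypes, 0–1 hr label), 3 (1.5–2.5 hr label), 25 (labels, wild type) and 13 (labels, SHMT). Of all genes 1622, 313, 4213 and 3545 were called lower. Higher calls between labels were 16 and 13, against 3408 and 3209 of all genes. With filterByExpr lower calls numbered 11 (genotypes, 0–1 hr label), 14 (wild type) and 10 (SHMT), and higher calls in SHMT 11. That fit tested 32 members and 7637 genes, of which 4204, 6772 and 6451 were called in either direction. With a minimum of 200 counts, lower calls numbered 2 (genotypes, 0–1 hr label) and 3 (wild type), and higher interaction calls 0, Cyp18a1 and Cyp6d2 being untested there. This fit tested 14 members and 6386 genes, of which 3903, 5874 and 2635 were called in either direction. DESeq2 gave 2 lower at the 0–1 hr label and 4 higher and 2 lower at the 1.5–2.5 hr label, as did the fit of only the groups compared at the latter (4 and 2). Of 6884 genes DESeq2 called 4404 and 769 in either direction, and the fit of only the groups compared called 1226 at the 1.5–2.5 hr label. At a threshold of 0.01 the counts were 1 and 0 (genotypes, 1.5–2.5 hr label), 3 lower (labels, SHMT) and 1 and 3 (interaction). Of 6884 genes 255, 5688 and 1561 were called there in either direction. Without the pair of libraries with over 11% outside genes, the interaction had 1 and 3, where 2322 of 6840 genes were called in either direction. With the stage labels exchanged, as the sums of the stage markers run, the counts were 2 and 1, 7 and 4, 6 and 10 (wild type), and 6 and 2 (interaction). Genes called in either direction numbered 482, 4040, 6285 and 2649 of 6884. Library sizes alone moved the median of all genes between labels from -0.04 to 0.48 (wild type) and -0.06 to 0.21 (SHMT). They left 3 lower calls in SHMT, where 5948 of 6884 genes were called in either direction, and turned Cyp4e2 there to log2 0.037 (adjusted p = 0.755). The cause of the other moves was not tested.

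The deviations of 18 same-numbered pairs of samples correlated at -0.24 to 0.54, over 0.1 in 6, so they did not all exceed 0.1, the criterion used for pairing. Between genotypes at the 1.5–2.5 hr label, replicates 1, 2 and 3 gave -0.24, 0.53 and 0.54. With the replicate block the members called higher and lower numbered 6 and 4, 2 and 1, 10 and 6, 7 and 7, and 2 and 7. Of 6884 genes 3971, 418, 6293, 6061 and 2595 were called there in either direction. Genes with few reads, such as Cyp18a1 outside wild type labelled 0–1 hr, are limited by depth.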
